A study of Mus musculus with 9 samples.

Results

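Genes of glycolysis and of the cell's response to low oxygen were examined in mesenchymal cells of the fetal mouse prostate after exposure to low doses of estradiol. They comprised 31 of the 19938 genes measured, namely 13 enzymes of the path from glucose to lactate and 18 other genes known to be raised in hypoxia, and all 31 were on the array. The genes were chosen by symbol, with earlier results of these data known. Where a gene had several probesets, the brightest by its average over all 9 arrays was taken. No difference between groups entered that choice of probeset.

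Glycolysis breaks glucose down to pyruvate, and lactate dehydrogenase turns pyruvate into lactate when the mitochondria do not burn it. Hypoxia-inducible factors (HIF) are transcription factors whose alpha subunits are hydroxylated and degraded while oxygen is plentiful. When oxygen falls, HIF accumulates, binds a short DNA core in promoters and enhancers, and raises most glycolytic genes together with genes for glucose uptake, removal of mitochondria, collagen hydroxylation and control of acidity. Some of its targets, the prolyl hydroxylases among them, act back on HIF itself.

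Urogenital sinus (UGS) mesenchyme is the connective tissue that directs growth of the prostate. The cells came from male CD-1 fetuses on gestation day 17 and were studied as primary cultures at the first passage. Every group was kept for 3 days in serum stripped of hormones, with 690 pM dihydrotestosterone (DHT), an androgen that is not converted to estrogen, and then received ethanol vehicle, 10 pM or 100 pM 17beta-estradiol (E2) for 4 days. There were 3 arrays in each of the 3 groups. CD-1 is an outbred stock, epithelial cells had been removed by settling, and nothing in the labels states that the samples of a group were separate cultures, so the p-values describe no more than the spread among these samples, and that spread may be technical.

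Values are log2 expression as deposited, and array medians lay between 6.17 and 6.20. Across genes, the correlation between any 2 arrays lay from 0.996 to 0.998. The mean of 12 mesenchymal markers lay between 10.5 and 10.7 on all arrays, and that of 14 epithelial markers between 6.03 and 6.22, close to the array medians. Precision is limited by having 3 arrays per group.

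Most of the genes had the same order of group means. Group means were ordered with 100 pM E2 lowest, vehicle between and 10 pM E2 highest for 11 of 13 glycolysis enzymes and 16 of 18 other hypoxia-response genes, an order found in 17.8% of all genes. The 10 pM mean exceeded the vehicle mean for 30 of the 31 genes, against 53.5% of all genes, and the 100 pM mean was below the vehicle mean for 28 of them, against 47% of all genes. Both differences are taken from the same vehicle arrays. Members were chosen with earlier results of these data known, so these counts describe the list and are not independent evidence. The exceptions were Hk1, whose vehicle mean was highest and 100 pM mean lowest, Pfkm, whose vehicle mean was lowest, and Car9 and Adm, whose 100 pM means were highest.

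**Figure D1:**
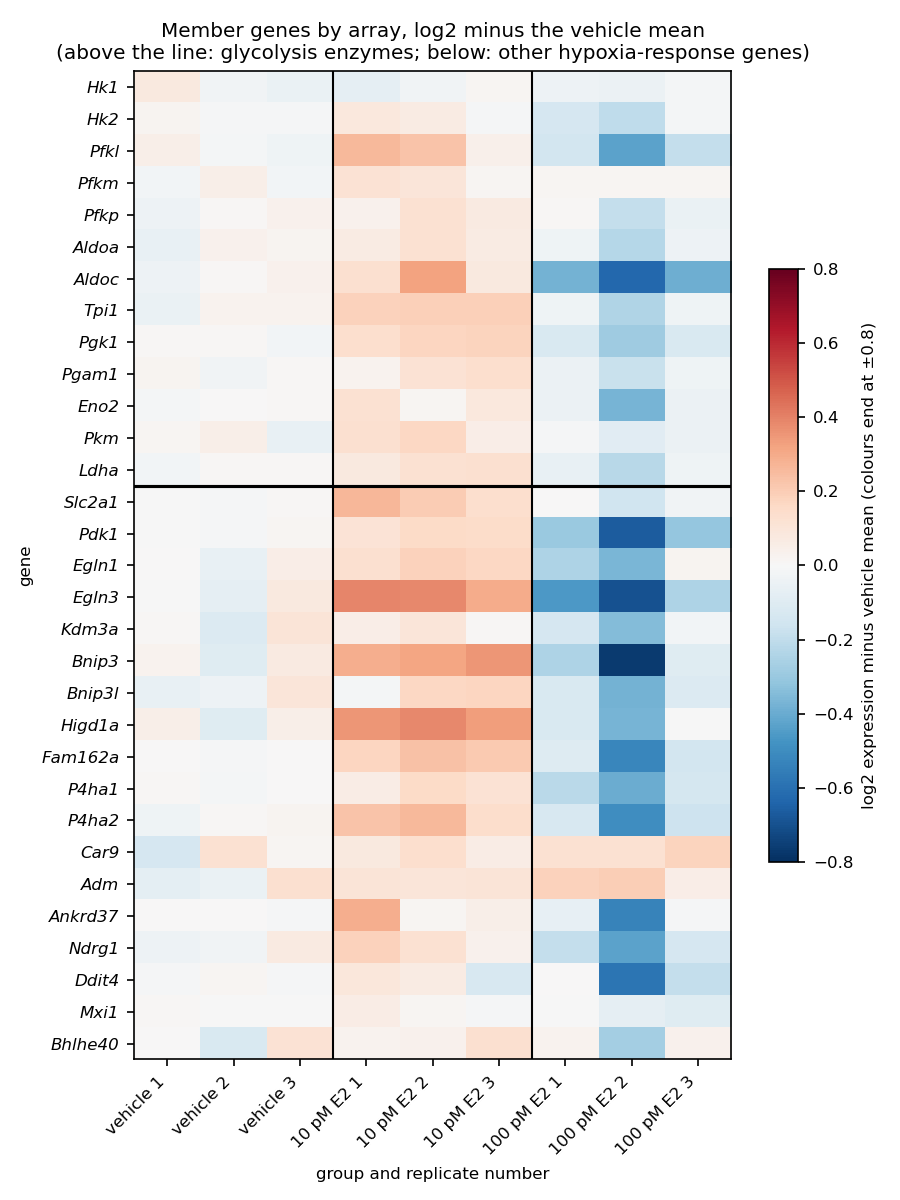
Log2 expression of each of the 31 genes (rows) on each of the 9 arrays (columns) minus the gene's vehicle mean, shown as colour from −0.8 to 0.8, with the 13 glycolysis enzymes above the horizontal line. Most rows are red at 10 pM E2 and blue at 100 pM E2, and the second 100 pM array is the darkest column.

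Over the 3 groups, limma's F test called 4 of the 31 genes at a Benjamini-Hochberg adjusted p below 0.05, compared with 0.843% of all genes. These were the glycolysis enzymes Aldoc (adjusted p = 0.0154) and Pgk1 (adjusted p = 0.0328) and the hypoxia-response genes Egln3 (adjusted p = 0.014) and Pdk1 (adjusted p = 0.0404). Glycolysis is a theme the study named for these samples, so its count here is not independent evidence. Leaving out vehicle array 1, 2 or 3 gave counts of 1, 2 and 1, leaving out 10 pM array 1, 2 or 3 gave 0, 1 and 1, leaving out 100 pM array 2 gave 8, and leaving out 100 pM array 3 gave 5, which held 2 of the 4. The share of all genes called was not counted in these reduced fits. A contrast of 10 pM E2 with the mean of vehicle and 100 pM E2, which asks directly for an inverted U, called 0 of the 31 genes with limma, 0 with analysis of variance, and 0.00502% of all genes. Its smallest adjusted p among the 31 was 0.166, for Egln3, with a difference of 0.59 ± 0.08 (SE, n = 3 arrays per group). At an unadjusted p below 0.05, 21 of the 31 were higher at 10 pM in this contrast, as were 3.47% of all genes.

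The 2 doses of E2 were then compared with each other, 100 pM over 10 pM. Expression of 7 genes was lower at 100 pM, with 0.607% of all genes called lower, and none of the 31 was called higher, with 0.226% of all genes called so. The 7 were Aldoc and Pgk1 among 13 glycolysis enzymes, and Egln3, Pdk1, Higd1a, P4ha1 and P4ha2 among 18 other hypoxia-response genes. For 24 genes all 100 pM arrays lay below all 10 pM arrays, which held for 6.42% of all genes, and the same number were lower at an unadjusted p below 0.05, against 5.54% of all genes. Leaving out any 1 vehicle array left 3 calls, and leaving out 10 pM array 1, 2 or 3 left 0, 1 and 2. Leaving out 100 pM array 2 gave 9, which kept all 7 and added Bnip3 and Fam162a, leaving out 100 pM array 1 left 5, and leaving out 100 pM array 3 gave 8, which held 6 of the 7. Here too, the share of all genes called without an array was not counted. Analysis of variance called 0.

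Egln3 encodes a prolyl hydroxylase that marks HIF for degradation and is itself induced by HIF. Its log2 values were 7.62, 7.55 and 7.70 on the vehicle arrays, 8.01, 8.00 and 7.92 at 10 pM, and 7.16, 6.92 and 7.37 at 100 pM, so the 3 groups did not overlap. It was 1.77-fold lower at 100 pM than at 10 pM (−0.83 ± 0.10, limma adjusted p = 0.0097), the largest such difference among the 31. Aldoc encodes the brain-type aldolase, which splits a phosphorylated hexose into trioses. Its values were 7.06, 7.11 and 7.13 with vehicle, 7.23, 7.42 and 7.17 at 10 pM, and 6.72, 6.47 and 6.71 at 100 pM. The groups did not overlap here either, and the 100 pM arrays were 1.56-fold below the 10 pM arrays (−0.64 ± 0.08, adjusted p = 0.0108).

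Pdk1 encodes the pyruvate dehydrogenase kinase that keeps pyruvate out of the mitochondrial citric acid cycle. It measured 8.67, 8.67 and 8.69 with vehicle, 8.79, 8.83 and 8.83 at 10 pM, and 8.38, 8.01 and 8.36 at 100 pM. All 3 groups were apart, with the second 100 pM array far below the other two, and the fall between the doses was 0.56 ± 0.09 on the log2 scale (adjusted p = 0.0235). Pgk1, phosphoglycerate kinase, catalyses the step of glycolysis at which ATP is first made. It measured 12.56, 12.56 and 12.52 with vehicle, 12.68, 12.72 and 12.72 at 10 pM, and 12.42, 12.26 and 12.43 at 100 pM, again without overlap. The difference between the doses was −0.34 ± 0.05 (adjusted p = 0.0158), a second probeset holds the same values on every array, and the third gave −0.32. There are 3 pseudogenes named after Pgk1, and probes may read them too.

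Higd1a encodes a small protein of the inner mitochondrial membrane induced by hypoxia. It measured 7.98, 7.83 and 7.98 with vehicle, 8.28, 8.32 and 8.26 at 10 pM, and 7.81, 7.56 and 7.92 at 100 pM. Only the 10 pM arrays stood apart, since vehicle and 100 pM overlapped, and the difference of 100 pM from 10 pM was −0.52 ± 0.09 (adjusted p = 0.0298). The other probeset of Higd1a gave −0.47 between the doses, but placed the change differently, with −0.45 for 100 pM against vehicle and 0.01 for 10 pM against vehicle, where the probeset used gave −0.17 and 0.36. Which of these probesets reads the Higd1a transcript better was not tested, so the rise at 10 pM rests on the probeset used.

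P4ha1 and P4ha2 encode the catalytic subunits of collagen prolyl 4-hydroxylase, which collagen needs to form a stable helix. P4ha1 measured 11.28, 11.26 and 11.28 with vehicle, 11.33, 11.43 and 11.39 at 10 pM, and 11.05, 10.87 and 11.13 at 100 pM, a difference between the doses of −0.36 ± 0.06 (adjusted p = 0.0386). P4ha2 measured 8.96, 9.00 and 9.01 with vehicle, 9.22, 9.25 and 9.13 at 10 pM, and 8.86, 8.50 and 8.82 at 100 pM, a difference of −0.47 ± 0.09 (adjusted p = 0.0492). For both genes the groups did not overlap, and P4ha2 passed the threshold only narrowly.

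**Figure D2:**
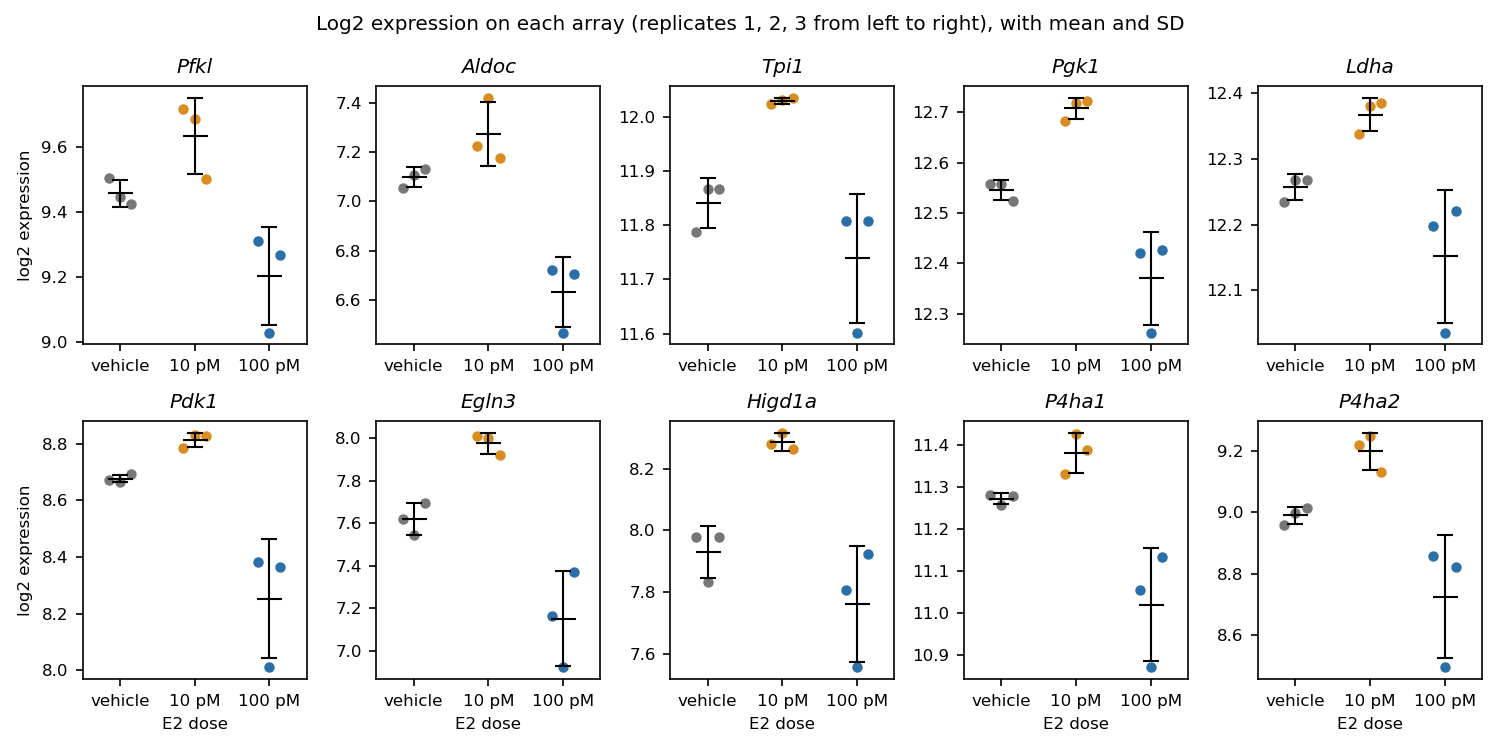
Log2 expression (vertical axis, a scale of its own in each panel) against E2 dose for 5 glycolysis enzymes (upper row) and 5 other hypoxia-response genes (lower row), with 1 point per array and bars for the mean and SD of 3 arrays. In every panel the 100 pM mean is lowest and the 10 pM mean highest, and the second 100 pM array is the lowest point.

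Promoters of the 7 called genes are shown because these genes were called together and because HIF is known to bind a short core, ACGTG or GCGTG, in such promoters. Each line gives the 60 bases before the RefSeq gene start (build GRCm38.p6) that hold most cores, written 5′ to 3′ in the direction of the gene, with each core of either strand in capitals.
Egln3, chr12:54204065-54204124, minus strand: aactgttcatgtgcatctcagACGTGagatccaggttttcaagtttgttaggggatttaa
Aldoc, chr11:78322995-78323054, plus strand: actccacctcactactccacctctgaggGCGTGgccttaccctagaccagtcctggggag
Pdk1, chr2:71873118-71873177, plus strand: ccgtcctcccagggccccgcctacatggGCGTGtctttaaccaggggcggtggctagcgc
Pgk1, chrX:106186932-106186991, plus strand: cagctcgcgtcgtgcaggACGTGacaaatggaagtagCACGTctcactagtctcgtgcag
Higd1a, chr9:121857835-121857894, minus strand: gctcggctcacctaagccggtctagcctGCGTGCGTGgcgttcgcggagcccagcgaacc
P4ha1, chr10:59323124-59323183, plus strand: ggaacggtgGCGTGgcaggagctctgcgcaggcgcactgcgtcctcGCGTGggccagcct
P4ha2, chr11:54100812-54100871, plus strand: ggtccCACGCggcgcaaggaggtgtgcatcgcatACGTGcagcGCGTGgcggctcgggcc

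All 7 windows lie before the gene's start, and that of Egln3 is the farthest from it, 250 to 191 bases before. Pgk1 and P4ha1 each held 2 separate cores in the window and P4ha2 held 3. In the whole promoter window, from 250 bases before to 50 after the start, 22 of the 28 genes that could be matched held at least 1 core on either strand, counting overlapping copies as 1 site. That is 78.6%, with 61.5% of 13 glycolysis enzymes and 93.3% of 15 other hypoxia-response genes, compared with 43.8% of 27025 promoters of all genes. These promoters were rich in G and C, with a median of 65% against 52.7% over all genes, and among all promoters with 60 to 70% GC the share with a core was 68.7%. The form ACGTG alone, on either strand, was present in 60.7% of the 28 promoters, in 19.7% of all promoters and in 27.8% of those with like GC. The arms of the palindromic estrogen response element, GGTCA and TGACC spaced by 3 bases, were found in 0 of the 28 and in 0.0666% of all promoters. They were also found in 0 of the 5570 promoters with 60 to 70% GC, so their absence from the 28 is not informative. Hk1, Aldoa, Tpi1, Eno2, Pkm and Mxi1 had no core in this window. The other hypoxia-response genes were listed because hypoxia is known to raise them. An excess of the core in their promoters is therefore a trait of the list and not a result of these data. For the glycolysis enzymes, the share with either core, 61.5%, was below the 68.7% of promoters with like GC. ACGTG alone was in 46.2% of the glycolysis enzymes and 73.3% of the others. These matches describe letters in the sequence and are not measured binding.

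Along the glycolytic path, none of the enzymes measured was called higher at either dose. Gpi1, Gapdh and Eno1, which belong to the same path, were not among the genes measured, so the path was not read in full. The hexokinases trap glucose in the cell. Hk2 measured 9.24, 9.21 and 9.21 with vehicle, 9.31, 9.29 and 9.21 at 10 pM, and 9.09, 9.02 and 9.20 at 100 pM, and its difference between the doses was −0.17 ± 0.05. Hk1 differed by less than its SE of 0.04 in all 3 pairwise comparisons, but its brightest probeset shares an accession with 17 others, 16 of them annotated to both Rpl17 and Hk1, so it may not read Hk1 alone. The other Hk1 probeset gave −0.11 between the doses.

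Phosphofructokinase controls the rate of the pathway, and none of its 3 subunit genes passed in any comparison. The liver form Pfkl measured 9.50, 9.45 and 9.42 with vehicle, 9.72, 9.68 and 9.50 at 10 pM, and 9.31, 9.03 and 9.27 at 100 pM. The 10 pM and vehicle arrays overlapped, while all 100 pM arrays were lower, and the difference between the doses missed the threshold (−0.43 ± 0.08, adjusted p = 0.0545). The platelet form Pfkp differed between the doses by −0.15 ± 0.05 and the muscle form Pfkm by −0.06 ± 0.04, neither past the threshold. The ubiquitous aldolase Aldoa differed by −0.19 ± 0.06, less than Aldoc, and has 3 pseudogenes named after it.

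Tpi1, triose phosphate isomerase, interconverts the trioses that aldolase makes. It measured 11.79, 11.87 and 11.87 with vehicle, 12.02, 12.03 and 12.03 at 10 pM, and 11.81, 11.60 and 11.81 at 100 pM. Its 10 pM arrays lay close together and above all others, while 100 pM and vehicle overlapped, and the difference between the doses was −0.29 ± 0.06 (adjusted p = 0.0662). Below Pgk1 in the pathway, Pgam1 (phosphoglycerate mutase) differed by −0.18 ± 0.05, Eno2 (the neuronal enolase) by −0.23 ± 0.08 and Pkm (pyruvate kinase) by −0.16 ± 0.05, none past the threshold. Ldha makes lactate dehydrogenase A, at the end of the path. It measured 12.23, 12.27 and 12.27 with vehicle, 12.34, 12.38 and 12.38 at 10 pM, and 12.20, 12.04 and 12.22 at 100 pM, without overlap of groups, and the difference between the doses was −0.22 ± 0.05 (adjusted p = 0.12). Pgam1 and Ldha have 2 and 3 pseudogenes named after them.

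Among the other hypoxia-response genes, Slc2a1 encodes the glucose transporter that feeds the pathway. It measured 10.24, 10.24 and 10.26 with vehicle, 10.51, 10.45 and 10.38 at 10 pM, and 10.25, 10.09 and 10.22 at 100 pM. The 10 pM arrays were apart from all others and vehicle and 100 pM overlapped, with a difference between the doses of −0.26 ± 0.05 (adjusted p = 0.0676). Egln1, the main prolyl hydroxylase that senses oxygen for HIF, differed by −0.36 ± 0.09 and Kdm3a, a histone demethylase, by −0.22 ± 0.08, and neither passed.

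Bnip3 and Bnip3l, receptors that mark mitochondria for removal, and Fam162a, another mitochondrial protein, differed between the doses by −0.69 ± 0.14, −0.31 ± 0.08 and −0.46 ± 0.09. Bnip3 had the second largest difference among the 31 but did not pass (adjusted p = 0.0792), and its second 100 pM array, at 9.35, lay far below the other two at 9.87 and 10.02. The stress and growth regulators Ndrg1, Ankrd37, Ddit4 (an inhibitor of mTOR signaling), Bhlhe40 and Mxi1 (transcriptional repressors) differed by −0.36 to −0.08, and none passed.

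Car9 and Adm did not share the pattern. Car9 encodes a carbonic anhydrase of the cell surface that takes part in control of acidity and is a widely used marker of hypoxia. Adm encodes the vasodilator peptide adrenomedullin. Car9 measured 5.17, 5.43 and 5.33 with vehicle, 5.39, 5.45 and 5.37 at 10 pM, and 5.43, 5.43 and 5.49 at 100 pM, among the dimmest 30% of genes. Adm measured 7.71, 7.73 and 7.92 with vehicle, 7.89, 7.88 and 7.88 at 10 pM, and 7.97, 7.98 and 7.84 at 100 pM. Groups overlapped for both genes. Each differed by 0.14 ± 0.06 between 100 pM E2 and vehicle (adjusted p = 0.458 for Car9 and 0.438 for Adm), not past the threshold.

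**Figure D3:**
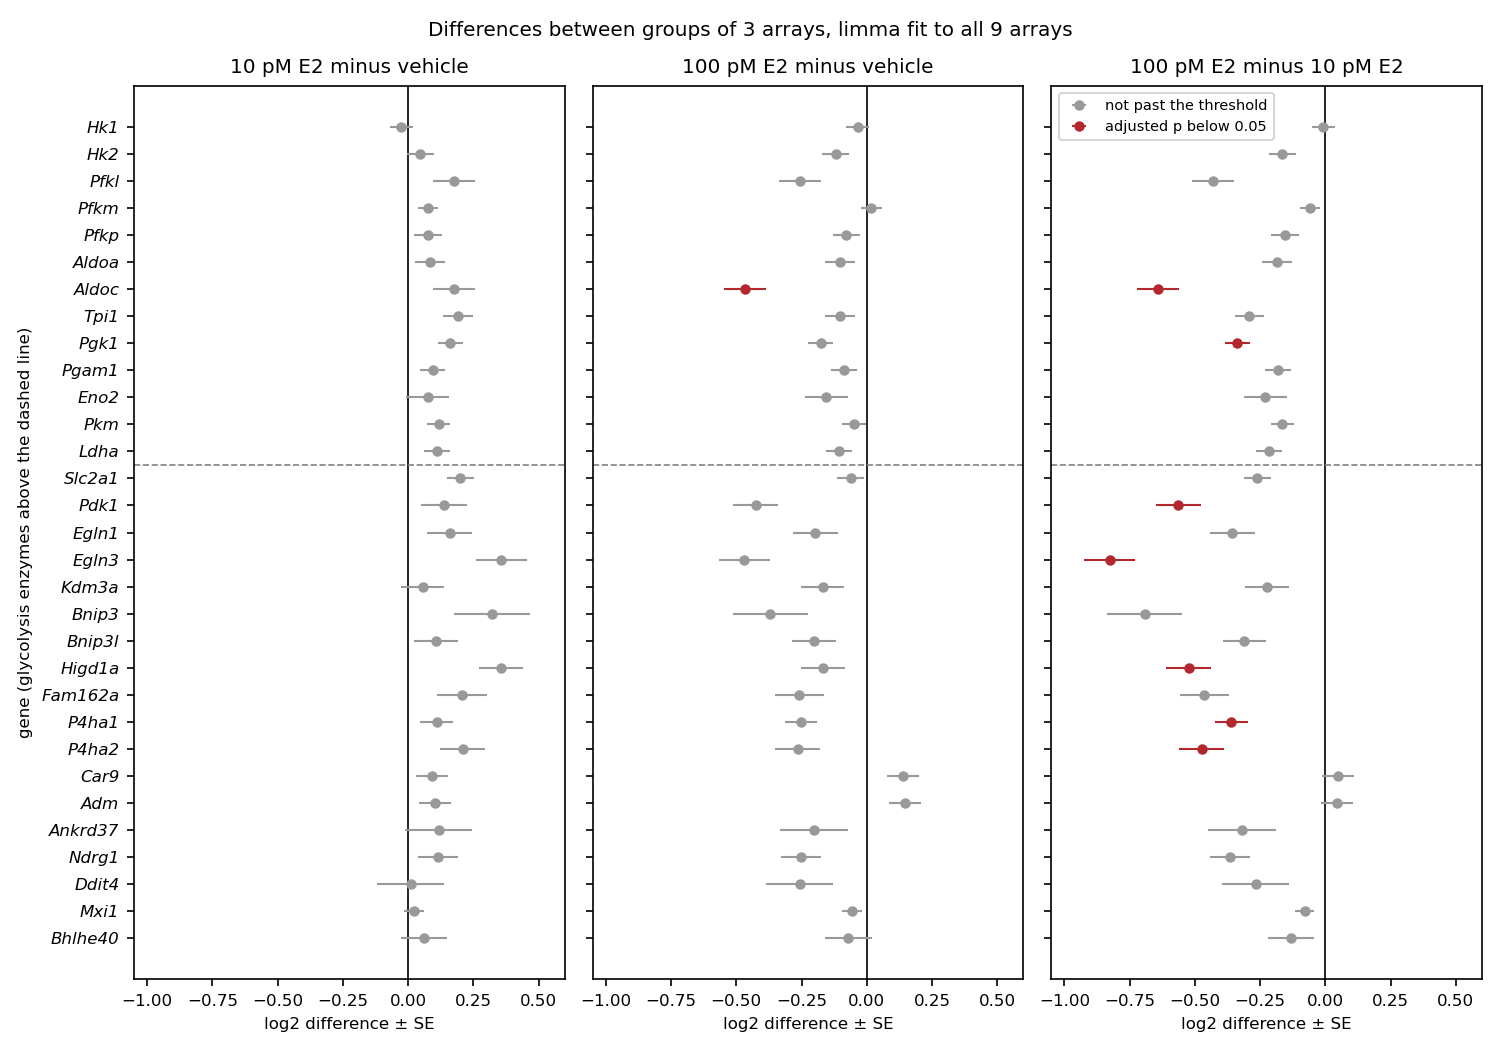
Log2 difference ± SE (horizontal axis) for each of the 31 genes (rows) in 3 comparisons, each from groups of 3 arrays, with red points at an adjusted p below 0.05. Nearly all points lie right of 0 for 10 pM E2 minus vehicle and left of 0 in both comparisons with 100 pM E2 on top, where 1 and 7 genes are red.

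Cells at the higher dose were next set against vehicle. Aldoc was the only one of the 31 called (−0.47 ± 0.08, limma adjusted p = 0.0336), 1.38-fold lower, with 0.687% of all genes called lower and 1.13% in either direction. The 100 pM arrays lay below all vehicle arrays for 14 genes, against 5.89% of all genes, and 13 were lower at an unadjusted p below 0.05, against 5.36%, while 2, Car9 and Adm, were higher, against 5.5%. Pdk1 (−0.43 ± 0.09, adjusted p = 0.062) and Egln3 (−0.47 ± 0.10, adjusted p = 0.0685) were next. The call for Aldoc was lost on leaving out any 1 vehicle array, 10 pM array 1 or 3, or 100 pM array 2 or 3. Without 100 pM array 2 it differed by −0.38 (adjusted p = 0.0823, range over 21 alternatives 0.0145 to 0.207) and Pdk1 alone was called.

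In the comparison of 10 pM E2 with vehicle, limma called 0 of the 31 genes and 0% of all genes, and analysis of variance also called 0 of the 31. All 10 pM arrays lay above all vehicle arrays for 19 genes, against 3.74% of all genes. At an unadjusted p below 0.05, 7 genes were higher, against 2.19% of all genes, namely Tpi1 (0.19 ± 0.06), Pgk1 (0.16 ± 0.05), Pkm (0.12 ± 0.05), Slc2a1 (0.20 ± 0.05), Egln3 (0.36 ± 0.10), Higd1a (0.36 ± 0.09) and P4ha2 (0.21 ± 0.09). The adjusted p of each was 1. The largest of these, in Egln3 and Higd1a, were 1.28-fold higher. The other probeset of Higd1a gave only 0.01 for this comparison.

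The medians of both lists had the same sign, and those of the other hypoxia-response genes were farther from 0. Their median difference between 100 pM and 10 pM was −0.34, and that of the glycolysis enzymes −0.19, compared with 0.00 over all genes. Against vehicle, the medians at 100 pM were −0.20 for other hypoxia-response genes and −0.10 for glycolysis enzymes, and at 10 pM 0.12 and 0.09. The pooled SD between arrays of a group was 0.0956 for the array medians of the other hypoxia-response genes and 0.0619 for those of the glycolysis enzymes, and the medians of the 2 lists at 10 pM differed by less than either. Whether the lists differ was not tested, because genes are not replicates.

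The list medians separated the groups array by array. Relative to the vehicle mean, the median of the glycolysis enzymes was −0.02, 0.01 and 0.01 on the vehicle arrays, 0.11, 0.12 and 0.07 at 10 pM, and −0.05, −0.22 and −0.04 at 100 pM. That of the other hypoxia-response genes was 0.00, −0.02 and 0.04 with vehicle, 0.12, 0.15 and 0.13 at 10 pM, and −0.12, −0.39 and −0.09 at 100 pM. In both lists the groups did not overlap. The lists were chosen with earlier results of these data known, so this separation is not independent evidence. The second 100 pM array was the lowest of the 9 for 26 of the 31 genes, 11 of 13 glycolysis enzymes and 15 of 18 others, and for 13.7% of all genes. Without it the median differences from vehicle at 100 pM were −0.04 and −0.10, and those from 10 pM were −0.13 and −0.25, for glycolysis enzymes and other hypoxia-response genes in that order. Nothing in the labels sets this array apart.

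**Figure D4:**
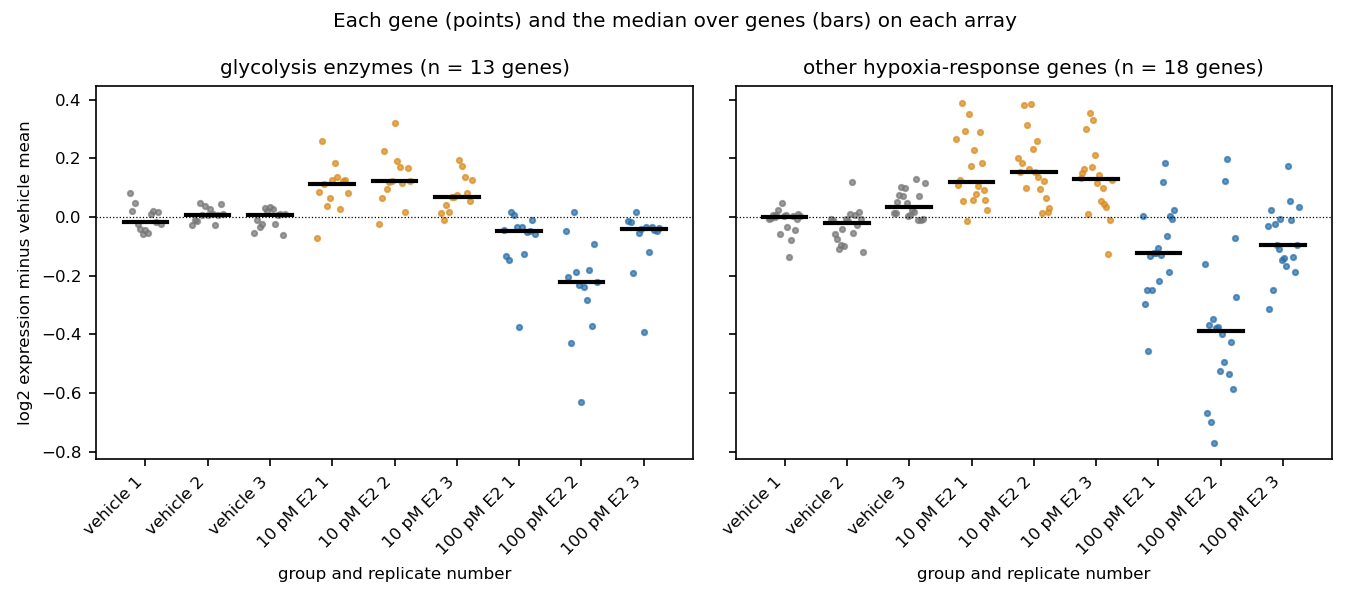
Log2 expression minus the vehicle mean (vertical axis) of each gene (points) and the median over genes (bars) on each of the 9 arrays, for 13 glycolysis enzymes (left) and 18 other hypoxia-response genes (right). The medians of the 10 pM arrays are above and those of the 100 pM arrays below all vehicle arrays, and the second 100 pM array is lowest at −0.22 and −0.39.

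Neighboring pathways were examined through further gene lists. Among 19 other measured genes of glycolysis and lactate handling, 2 were called in the comparison of 100 pM with 10 pM E2, both lower, against 0.607% of all genes called lower. They were Slc2a3, a second glucose transporter (−0.59 ± 0.10, adjusted p = 0.0379), and Pgm1, which links glycogen to glycolysis (−0.39 ± 0.07, adjusted p = 0.0307). The median of this list, which includes forms used mainly in other tissues, was 0.00, as over all genes. Slc2a3 measured 8.11, 7.78 and 8.26 at 100 pM, against 8.63, 8.63 and 8.66 at 10 pM. Pgm1 measured 9.32, 9.07 and 9.31 at 100 pM, against 9.67, 9.62 and 9.59 at 10 pM, and neither gene's doses overlapped.

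Of 33 further genes known as HIF targets, 3 were called lower and none higher at 100 pM than at 10 pM, against 0.607% and 0.226% of all genes, and the list's median was −0.12. They were Stc2, a secreted glycoprotein (−0.43 ± 0.07, adjusted p = 0.0382), Plod1, a collagen lysyl hydroxylase (−0.38 ± 0.07, adjusted p = 0.0465), and Ndufa4l2, a mitochondrial protein (−0.90 ± 0.17, adjusted p = 0.0499). At an unadjusted p below 0.05, 18 of the 33 were lower and 2 higher, against 5.54% and 4.63% of all genes. Vegfa, the vascular growth factor, differed by −0.25 between the doses without passing. Of 14 genes of gluconeogenesis and glycogen, 1 was called, Pygl, the liver glycogen phosphorylase, which differed by −0.35 ± 0.05 between 100 pM and 10 pM (adjusted p = 0.0174), against 0.607% of all genes called lower.

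Apart from Egln3 and Egln1, described above and not counted again here, 15 regulators of the HIF pathway were measured, and none passed in any of the pairwise comparisons. The HIF subunit gene Hif1a differed by −0.05 between 100 pM and 10 pM and Epas1 by −0.02, and Vhl, whose product marks HIF for degradation, had the smallest F test p of the list and differed by −0.16 between 100 pM and vehicle. Transcript levels do not measure the HIF protein, which is controlled mainly after translation. None of 7 pentose phosphate genes passed, and Pgd, the closest, differed by 0.24 ± 0.05 between 100 pM and vehicle (adjusted p = 0.0899), opposite in sign to most glycolysis enzymes. Apart from Pdk1, which was called, none of 11 genes of the pyruvate dehydrogenase complex and its regulators passed, and Pdk4 differed by 0.19 between 100 pM and vehicle.

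Markers of other cell types were followed across the doses. In bulk RNA, fewer cells of a type and less RNA per cell cannot be told apart. All 12 macrophage markers were lower at 100 pM than with vehicle, against 47% of all genes, and 1 of them, C1qb, passed the threshold (−0.51), against 0.687% of all genes called lower. The mean of the list lay between 5.74 and 5.88 with vehicle, 5.65 and 5.82 at 10 pM, and 5.55 and 5.58 at 100 pM. These means were below the array medians of 6.17 to 6.20, and Adgre1, C1qc and Mrc1 were among the dimmest 30% of genes. The mean of 14 epithelial markers lay between 6.03 and 6.09, 6.04 and 6.07, and 6.11 and 6.22 in the same order. Of these, Perp, a desmosome protein, was called higher at 100 pM than with vehicle (0.63, adjusted p = 0.0249), against 0.446% of all genes called higher. Perp and the keratin gene Krt18 (0.57, adjusted p = 0.0428) were called higher at 100 pM than at 10 pM, against 0.226% of all genes called higher.

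The mean of 10 endothelial markers lay between 6.30 and 6.37 with vehicle, 6.30 and 6.34 at 10 pM, and 6.27 and 6.28 at 100 pM, with calls in both directions. Kdr, a receptor for vascular growth factor, was lower at 100 pM than with vehicle (−0.98, adjusted p = 0.00359) and Emcn, the sialomucin endomucin, was higher (0.82, adjusted p = 0.00399). Among all genes, 0.687% were called lower and 0.446% higher in that comparison. The mean of 12 mesenchymal markers lay between 10.61 and 10.65 with vehicle, 10.62 and 10.66 at 10 pM, and 10.49 and 10.54 at 100 pM. At 100 pM, 5 of them (Pdgfra, Col3a1, Dcn, Lum and Postn) were called lower than with vehicle, against 0.687% of all genes. The direction was not uniform, since 3 of the 12 were higher without being called, among them Vim (0.13) and S100a4 (0.28). In the means of all 4 lists the 10 pM and vehicle arrays overlapped, while the 100 pM arrays lay apart from every vehicle array. The part of these markers in the differences of the glycolysis and hypoxia-response genes was not tested.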

How the data were processed

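Total RNA of 9 samples had been hybridized to Affymetrix Mouse Gene 1.0 ST arrays. The authors converted the scans with GeneChip Operating Software and Gene Expression Console, versions not given, into the deposited table of log2 expression values per probeset. That the scale is log2 was judged from the range of the values, and how arrays were normalized to each other is not given in the sources used here. Of 35556 probesets, 21789 had 1 gene symbol in the platform annotation, 1621 had several and 12146 were unnamed here. Entrez identifiers matched 21698 of them to the current gene table, which gave 19938 genes. No dim probeset was removed.

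Group means were fitted in 1 linear model across the 9 arrays and all genes with limma 3.58.1 in R 4.3.3 (lmFit, eBayes), two-sided, with Benjamini-Hochberg adjustment over all 19938 genes and a threshold of 0.05. On simulated data for 100 pM E2 against vehicle, with 200 of 19938 genes changed, 83% of changes of 0.5 and 99% of changes of 1 on the log2 scale were recovered, with 5.7% false calls. The simulated noise was independent between genes, so a shift shared by many genes on 1 array was not simulated. These rates do not cover such a shift. Full values are given for genes called in any test and for the 5 genes of each list with the smallest F test p, and from each further list for at most 3 called genes or the 1 with the smallest p. Members and lists were chosen with earlier results of these data known. Promoters came from RefSeq, build GRCm38.p6, at each gene's first listed start, and 28 of the 31 genes matched. Figures were drawn with matplotlib 3.10.9.

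Alternatives were quantile normalization, median centring, a filter on the dimmest 30% of genes, all probesets, the mean of a gene's probesets, array weights, eBayes with trend and robust, analysis of variance, only the compared groups, the replicate block, an adjusted p below 0.10, leaving out each array, and leaving out the second vehicle and second 100 pM arrays together. The dimmest probeset of each gene was added after seeing the data.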

Additional observations from a re-analysis of the deposited data

Results flagged for a closer look

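In 7 genes the difference between the doses was itself past the threshold while the means at 10 pM and 100 pM E2 lay on opposite sides of the vehicle mean. The differences of 100 pM from 10 pM were −0.64 for Aldoc, −0.34 for Pgk1, −0.56 for Pdk1, −0.83 for Egln3, −0.52 for Higd1a, −0.36 for P4ha1 and −0.47 for P4ha2 on the log2 scale. In none of them was 10 pM E2 called against vehicle, and in Aldoc alone was 100 pM E2 called against vehicle. For Higd1a the other probeset placed the 10 pM mean only 0.01 above the vehicle mean.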

How the results depend on the processing

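Alternatives were run for both list medians and for the 10 genes plotted by dose, and none of these changed direction, but the number of genes called depended on the setting. Among the other genes, small differences could change sign. For example, Bhlhe40 at 100 pM against vehicle was −0.07, and 0.03 without the second 100 pM array. Hk1 at 10 pM against vehicle was −0.03, and 0.04 with its other probeset. Hk1 also changed sign without the first vehicle array, and Ddit4 at 10 pM against vehicle did so without the first 10 pM array. For the calls, the share of all genes was counted only in the main fit. A setting that called more of the listed genes may have called more of all genes too. With the dimmest 30% of genes left out the calls were 8 in the F test, 3 for 100 pM E2 against vehicle and 13 for 100 pM against 10 pM E2. With eBayes with trend and robust they were 10, 3 and 14, at an adjusted p below 0.10 they were 7, 3 and 13, and with all probesets tested or with analysis of variance they were 0 in all of these tests. Array weights gave 3 calls for 100 pM E2 against vehicle and 11 for 100 pM against 10 pM E2, quantile normalization gave 3 for 100 pM E2 against vehicle, and fitting only the compared groups gave 0 in both. Leaving out each array in turn gave 0 to 8 calls in the F test, 0 to 2 for 100 pM E2 against vehicle and 0 to 9 for 100 pM against 10 pM E2, and leaving out the second vehicle and second 100 pM arrays together gave 2 in the F test. The median difference of other hypoxia-response genes between 100 pM E2 and vehicle was −0.20 and ranged from −0.29 to −0.10 when 1 array was left out, with −0.10 reached without the second 100 pM array. For 10 pM E2 against vehicle and for the contrast of 10 pM E2 with the other groups, 0 genes were called in all alternatives run. With the mean of its probesets Higd1a was not called between the doses (adjusted p = 0.0677, range over 21 alternatives 0.012 to 0.28).

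With the replicate number as a block the calls were 1 in the F test, 0 for 100 pM E2 against vehicle and 5 for 100 pM against 10 pM E2. The labels do not say whether same-numbered samples belong together. Deviations from the group means correlated with r from −0.11 to 0.20 between same-numbered arrays and from −0.19 to 0.17 between others. These ranges overlap and cannot settle whether the numbers pair the samples. The cause of the changes in calls was not tested. Changes below 0.5 on the log2 scale were not simulated, so how often 3 arrays per group would call differences as small as those at 10 pM is not known here.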
